A study of Canis lupus familiaris with 29 samples.

Results

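Leukocyte-rich and leukocyte-poor canine pheochromocytomas and paragangliomas (PPGLs) were set side by side. The 19 PPGLs were ranked by PTPRC CPM (the count times 1e6 over the column sum). The 9 highest formed the leukocyte-rich side and the 9 lowest the leukocyte-poor side, and the middle tumor was left out. The sides hold 18 of the 29 samples of the series, and the other samples are the middle tumor and 10 normal adrenal medullas (NAMs). PTPRC encodes CD45, a phosphatase on the surface of leukocytes. Because the sides were chosen by PTPRC, its own difference follows from the selection and is described without a test. Of the 7 PPGLs of group 1, 2 fell on the rich side and 5 on the poor side. Of the 12 PPGLs of group 2, 7 fell on the rich side, 4 on the poor side and 1 in the middle.

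Chromaffin cells of the adrenal medulla and of paraganglia make catecholamines, and PPGLs are their tumors. RNA from a whole piece of tumor mixes transcripts of these cells with those of macrophages, lymphocytes, vessels and connective tissue. In such bulk RNA, fewer cells of a kind and less RNA per cell cannot be told apart.

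The tumors arose naturally in client-owned dogs of several clinics and were taken at surgery or after euthanasia, then snap-frozen or kept in RNAlater. The NAMs came from healthy research dogs and were snap-frozen. PPGL groups 1 and 2 were defined by the authors on the principal component profile, after outlier tumors had been excluded. Libraries were TruSeq Stranded mRNA with single-end reads aligned to CanFam3.1.

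Column totals ran from 18208718 to 31919833 counts on the rich side, from 18493540 to 24744763 on the poor side and from 19258054 to 35918182 in NAMs. A level was read as present above 3 counts, which is 0.0940 to 0.165 CPM in the tumors. That floor covers counting error alone and not variation between dogs. Whether counting was strand-aware is not given in the sources used here. The level of a gene that shares sequence with another or overlaps it, as hemoglobin, immunoglobulin, MHC and MX genes may, is therefore uncertain.

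PTPRC ran from 14.3 to 109 CPM on the rich side (mean 34.5 ± 33.1 SD, median 16.8) and from 5.11 to 13.5 CPM on the poor side (mean 8.96 ± 3.04 SD, median 9.19). The border was narrow: group 2 replicate 6 entered the rich side with 14.3 CPM, group 2 replicate 1 stood in the middle with 13.7, and group 1 replicate 7 headed the poor side with 13.5. Group 2 replicates 11 and 9 stood apart with 109 and 69.8 CPM, followed by group 2 replicates 4 and 7 with 28.4 and 24.7. The other 5 rich tumors lay between 14.3 and 16.8 CPM. NAMs spanned 4.42 to 34.1 CPM (mean 17.3 ± 8.87 SD, median 15.7), so only those 2 tumors exceeded every NAM, and 7 of 10 NAMs exceeded every poor tumor. The word rich therefore describes a rank among PPGLs and not a level above normal medulla. PPGL group 1 spanned 5.11 to 16.8 CPM (median 11.9) and PPGL group 2 spanned 6.02 to 109 CPM (median 15.1).

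**Figure D1:**
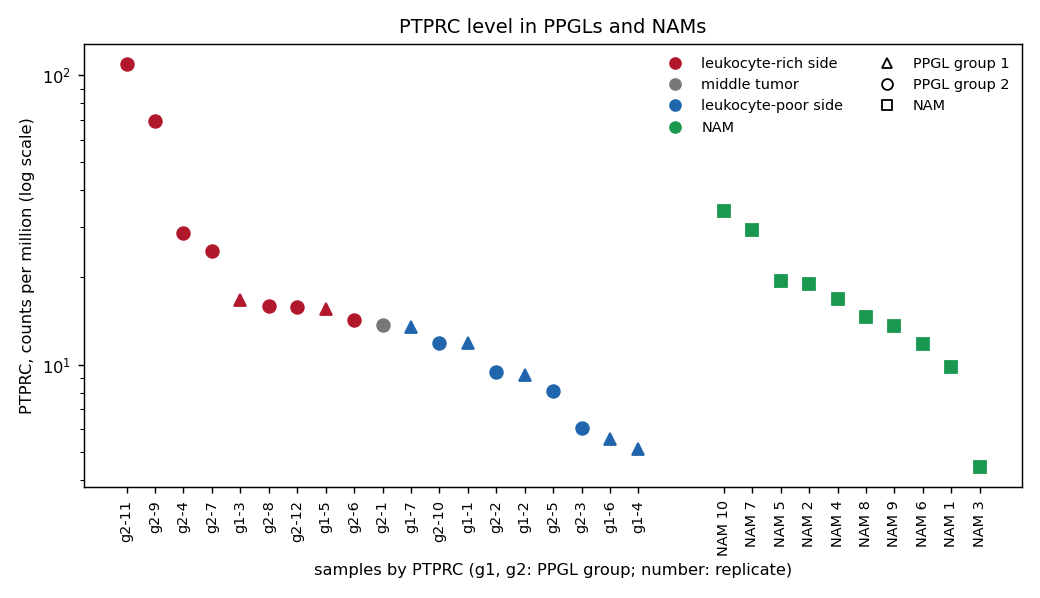
PTPRC level of every sample in CPM on a log scale. Tumors are ordered from highest to lowest and colored by side, with the shape giving the PPGL group. NAMs are shown at the right.

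Several libraries stand apart in sums of gene lists. Group 2 replicates 11 and 9 are the 2 tumors of highest PTPRC, so their leukocyte gene sums are not separate from the ranking. Group 2 replicate 11 carried the highest sums of plasma cell, neutrophil and fibroblast genes among the tumors, and group 2 replicate 9 the highest sums of macrophage, interferon-stimulated and MHC class I genes. On the poor side, group 1 replicate 7 had the lowest chromaffin sum and the highest mitosis sum of all 19 tumors. List medians, most log2 FC of single genes and the slope calls of lists are therefore given with and without group 2 replicates 9 and 11, and the proliferation lists with and without group 1 replicate 7.

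Library measures did not separate the sides in exact permutation tests over all 48620 divisions into 9 and 9. Total counts were 22358640 ± 4027954 SD (rich) and 22143099 ± 2424848 SD (poor, p = 0.907), and 17529 ± 476 SD and 17367 ± 536 SD genes had a count (p = 0.502). Mitochondrially encoded genes took 10.0 ± 3.54 SD and 7.70 ± 3.77 SD percent of counts (p = 0.195), and TMM factors were 1.01 ± 0.0942 SD and 0.998 ± 0.102 SD (p = 0.806).

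The test of all 14153 expressed genes between the sides called 0 higher (0.0%) and 0 lower (0.0%) on the rich side at an edgeR QL adjusted p under 0.05, the lowest adjusted p being 0.108. At an unadjusted edgeR QL p under 0.05 there were 940 genes higher (6.64%) and 741 lower (5.24%). DESeq2 Wald called 297 higher and 63 lower at an adjusted p under 0.05, with a lowest adjusted p of 2.57e-05. The exact Mann-Whitney test called 0 in either direction, with 658 higher and 488 lower at unadjusted p under 0.05 and a lowest adjusted p of 0.194. The number of genes called thus depended on the tool. Over all genes the median log2 FC was -0.07, and 0 genes other than PTPRC separated the 9 rich from the 9 poor tumors without overlap. Below, a gene with an unadjusted edgeR QL p under 0.05 is called nominal, p values of single genes are unadjusted edgeR QL values unless called adjusted, and sample values are the lowest, median and highest CPM, rich against poor. Each log2 FC of a single gene is given for all 18 tumors and then for the 16 without group 2 replicates 9 and 11, and its p is that of all 18. A log2 FC given alone is that of all 18.

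A fit on log2 PTPRC as a continuous measure over the 19 tumors used the spread within the sides as well. By edgeR QL 806 genes rose with PTPRC (5.69%) and 94 fell (0.664%) at an adjusted p under 0.05. Without group 2 replicates 9 and 11, 24 genes rose (0.17%) and 0 fell (0.0%), with 729 nominally positive and 525 nominally negative of 14153. List slopes are given below for both sets, as a lost call is not a lost slope. Whether slopes differ between the sets was not tested. Without the 2 tumors the comparison of 7 rich with 9 poor tumors by edgeR QL again called 0, with 624 nominal higher and 633 lower of 14352 genes. Slopes below are log2 units of a gene per log2 unit of PTPRC.

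The 5 genes of smallest p among those higher on the rich side were SH3RF3, STC2, HMOX1, TMEM255A and CTSC. SH3RF3, a scaffold of JNK signaling, read 1.22, 2.80 and 9.20 CPM against 0.324, 0.849 and 1.83 CPM (log2 FC 2.38 and 2.06, p 4.49e-05). STC2, a secreted glycoprotein, read 0.585, 2.18 and 11.7 CPM against 0.108, 0.285 and 0.816 CPM (log2 FC 3.02 and 2.20, p 8.17e-05), and NAMs held 0 to 0.228 CPM. HMOX1, which breaks down heme and is abundant in iron-recycling macrophages, read 94.4, 157 and 448 CPM against 38.3, 65.7 and 151 CPM (log2 FC 1.65 and 1.29, p 9.18e-05). TMEM255A, a membrane protein of little known function, read 5.20, 41.0 and 479.8 CPM against 0.42, 4.54 and 15.9 CPM (log2 FC 4.24 and 3.44, p 1.01e-04). Its NAM range was 0.279 to 1.21 CPM, so every rich tumor exceeded every NAM. The poor median of 4.54 CPM also lay above every NAM, so this was not particular to the rich side. The same held for the poor median of STC2 (0.285 CPM). The paper lists TMEM255A among the genes most raised in PPGLs against NAMs. CTSC, the lysosomal protease that activates granule proteases of leukocytes, read 38.8, 54.5 and 218 CPM against 14.2, 24.4 and 48.2 CPM (log2 FC 1.73 and 1.14, p 1.16e-04). For STC2, TMEM255A and CTSC 7 of 9 rich tumors exceeded the highest poor tumor, for SH3RF3 6 and for HMOX1 5 did. Without the 2 highest tumors the edgeR QL slopes of STC2, TMEM255A and CTSC were 1.76 (adjusted p = 0.0435), 2.26 (adjusted p = 0.0109) and 0.98 (adjusted p = 0.0223). Those of SH3RF3 and HMOX1 by edgeR QL were 1.51 (adjusted p = 0.0547) and 0.77 (adjusted p = 0.411).

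On the other side of the comparison stood SEC31B, FHOD3, MANF, RPA1 and RAD54B, the 5 of smallest p among those lower on the rich side. SEC31B, a coat protein of vesicles leaving the endoplasmic reticulum, read 0.197, 0.591 and 3.95 CPM against 1.44, 5.33 and 14.9 CPM (log2 FC -2.65 and -3.12, p 1.16e-04). FHOD3, an actin-assembling formin, read 5.66, 10.3 and 31.1 CPM against 21.8, 44.8 and 119 CPM (log2 FC -1.79 and -1.66, p 2.10e-04). MANF, a secreted factor of the endoplasmic reticulum stress response, read 81.0, 104 and 115 CPM against 84.0, 198 and 348 CPM (log2 FC -0.98, p 3.26e-04). RPA1, which binds single-stranded DNA, and RAD54B, a recombination helicase, read 69.1, 79.4 and 109 CPM against 87.8, 106 and 186 CPM (log2 FC -0.55 and -0.50, p 5.71e-04) and 0.4928, 2.44 and 3.98 CPM against 2.75, 5.21 and 11.9 CPM (log2 FC -1.50 and -1.33, p 5.94e-04). Ranges overlapped for each of the 5.

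Rank correlation with PTPRC over the 19 tumors gave the same kind of order, described here without a test. Highest were FYB1, an adapter of T cells and myeloid cells (Spearman rho 0.926), GPR65, a proton-sensing receptor of leukocytes (0.925), and DAPP1, a B cell adapter (0.921), then CTSC (0.905) and STC2 (0.902). Over the 17 tumors without the 2 highest these were 0.897, 0.895, 0.89, 0.868 and 0.885. FYB1 read 1.92, 4.00 and 26.1 CPM against 0.27, 1.32 and 4.32 CPM (log2 FC 2.25 and 1.31, p 5.28e-04), GPR65 2.08, 3.76 and 6.81 CPM against 0.373, 1.52 and 2.26 CPM (log2 FC 1.48 and 1.26, p 1.42e-04) and DAPP1 1.54, 2.45 and 27.3 CPM against 0.247, 0.624 and 2.55 CPM (log2 FC 3.05 and 1.70, p 1.86e-04). Lowest were CEP192, a centrosome scaffold (-0.818), KAT7, a histone acetyltransferase (-0.804), MCM9, a helicase of DNA repair (-0.793), RPA1 (-0.784) and DHX29, a translation initiation helicase (-0.781). With n = 17 the values were -0.767, -0.728, -0.762, -0.711 and -0.748. These genes were selected on rho over the 19 tumors, so a high value in 17 of them follows in part from the choice. CEP192 read 57.9, 90.7 and 128 CPM against 90.5, 128 and 226 CPM (log2 FC -0.56 and -0.44, p 0.00402) and KAT7 20.5, 35.0 and 50.2 CPM against 33.1, 64.3 and 72.3 CPM (log2 FC -0.68 and -0.52, p 0.00312). MCM9 read 11.6, 14.6 and 23.2 CPM against 14.9, 21.7 and 31.4 CPM (log2 FC -0.51 and -0.48, p 0.00513) and DHX29 39.5, 49.2 and 72.1 CPM against 53.7, 67.9 and 84.2 CPM (log2 FC -0.44 and -0.38, p 0.00547).

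Of the pan-leukocyte genes, which mark leukocytes of every lineage, 22 of 23 were found and 19 of 22 tested were nominally higher on the rich side, 0 lower. Their median log2 FC was 1.55 beside -0.07 over all genes, and 0.78 without the 2 highest tumors. Summed per sample they read 216, 393 and 1454 CPM against 180.4, 253 and 389 CPM, NAMs 139 to 402 CPM, and 5 of 9 rich tumors exceeded group 1 replicate 1, the highest poor tumor. LAPTM5, a lysosomal membrane protein of blood cells and per kb the most abundant of the list on the rich side, read 24.6, 54.6 and 224 CPM against 15.3, 22.9 and 39.6 CPM (log2 FC 1.57 and 0.87, p 5.44e-04), with 6 rich tumors above all poor ones. LCP1, an actin bundler of leukocytes, read 34.3, 55.6 and 236 CPM against 20.1, 52.8 and 123 CPM (log2 FC 0.34 and -0.19, p 0.412). SLA, an adapter that dampens antigen receptor signaling and the most abundant per kb on the poor side, read 3.89, 52.4 and 105 CPM against 0.525, 72.8 and 137 CPM (log2 FC -0.14 and -0.07, p 0.843). Slopes on PTPRC over the 19 tumors were positive in 21 of the 22 genes and negative in SLA (-0.07), and the sides overlapped. LCP1 had a slope of 0.38 (unadjusted edgeR QL p 0.00553), or 0.005 without the 2 highest tumors, and in PPGL group 2 alone a log2 FC of 1.14. Ranked by the pan-leukocyte genes instead, group 2 replicate 6 would move to the poor side, group 2 replicate 12 to the middle and group 2 replicates 1 and 10 to the rich side. By that ranking the name leukocyte-rich does not hold for group 2 replicate 6. The pan-leukocyte sum of group 2 replicate 12 (216 CPM) lay below the median of the poor side, although the ranking by the same genes put it in the middle. For that tumor the name is thus uncertain. By edgeR QL 19 of the 22 rose with PTPRC over the 19 tumors (median slope 0.82). With those 2 left out the median slope was 0.77 and 16 of 22 were nominally positive, but only CD48, a ligand of lymphocyte receptors, passed by edgeR QL (slope 1.15, adjusted p = 0.0445). CD48 read 3.28, 8.98 and 66.9 CPM against 1.26, 2.27 and 7.68 CPM (log2 FC 2.29 and 1.14, p 9.53e-04).

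MHC class II genes, which present antigen to helper T cells, were found for 6 of 18 names, and 5 of 6 were nominally higher. The median log2 FC was 1.58, or 0.79 without the 2 highest tumors. The sum read 534, 1065 and 5117 CPM against 352, 599 and 959.8 CPM, with 6 rich tumors above group 2 replicate 10 and 581 to 2282 CPM in NAMs. CD74, the invariant chain and the most abundant per kb, read 269, 550.0 and 2433 CPM against 175, 279.9 and 450.4 CPM (log2 FC 1.68 and 0.83, p 4.77e-04). DLA-DRA, the alpha chain of the DR molecule, read 191, 392 and 1903 CPM against 118, 181 and 371 CPM (log2 FC 1.75 and 0.90, p 5.33e-04), and DLA-DQA1, the alpha chain of DQ, 43.0, 110.2 and 624 CPM against 23.0, 59.4 and 89.5 CPM (log2 FC 1.90 and 1.04, p 3.52e-04). The other nominal genes were DLA-DMA, the peptide loader (log2 FC 1.44 and 0.73, p 0.00106), and CIITA, the master regulator of the class (log2 FC 1.49 and 0.59, p 0.00344). With PTPRC 5 of the 6 rose by edgeR QL over the 19 tumors (median slope 0.86), and CD74, DLA-DRA and DLA-DQA1 still did without the 2 highest (median slope 0.71, 5 of 6 nominally positive). Those edgeR QL slopes were 0.72 (adjusted p = 0.0209), 0.84 (adjusted p = 0.0172) and 1.000 (adjusted p = 0.0109).

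**Figure D2:**
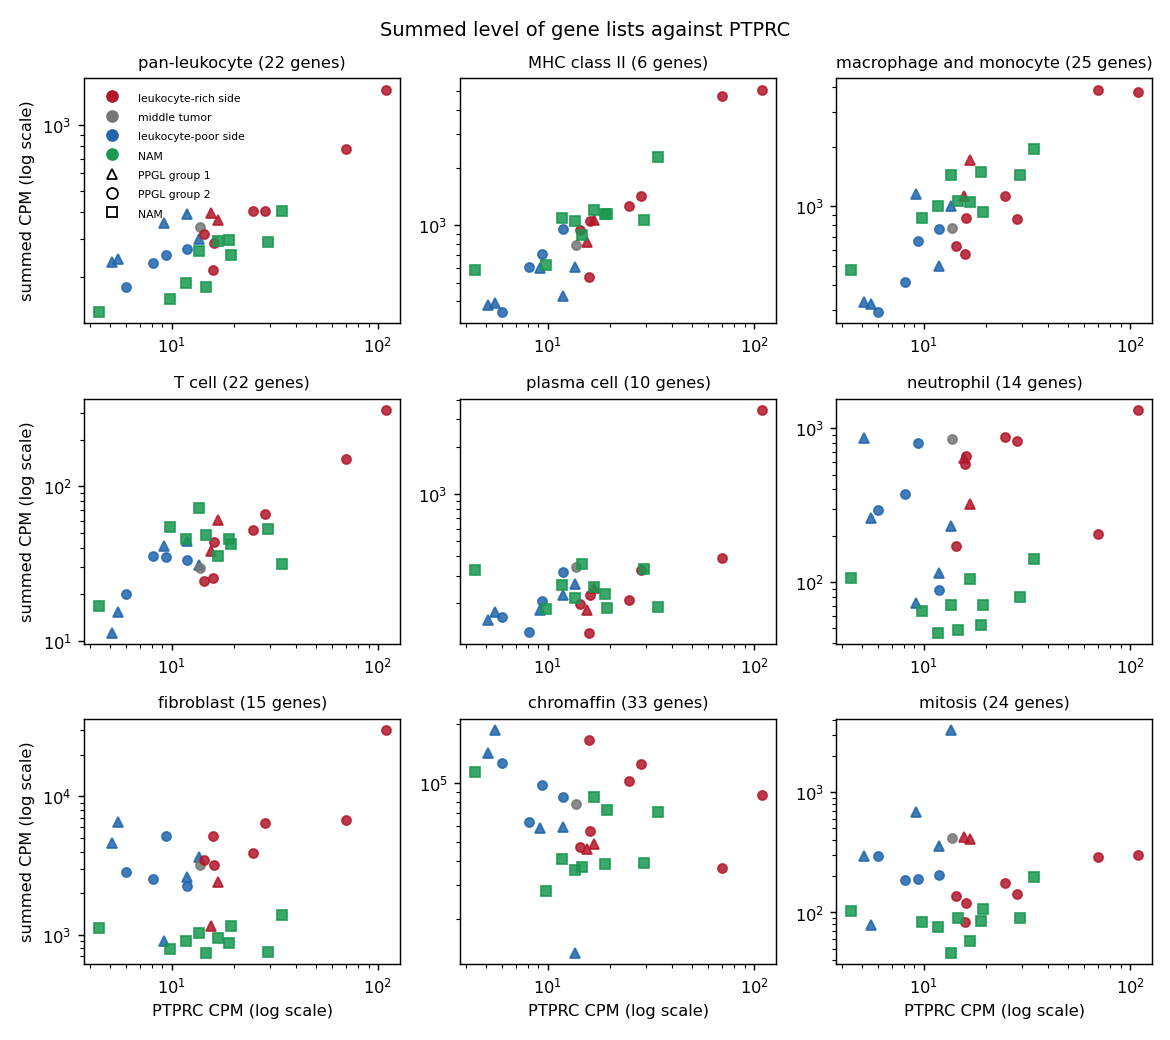
Summed CPM of 9 gene lists against PTPRC CPM in the 19 PPGLs and 10 NAMs, with log scales. Each point is a sample.

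T cell genes were found for 22 of 24 names, but only 10 were high enough to test. Nominally higher were 6, with a list median log2 FC of 2.03, or 1.32 without the 2 highest tumors, beside -0.07 over all genes. The sum was low, 24.3, 52.3 and 312 CPM against 11.3, 33.2 and 44.6 CPM, with 16.8 to 72.1 CPM in NAMs and 5 rich tumors above all poor ones. CD4, the helper coreceptor that canine neutrophils also carry, read 1.97, 9.45 and 178 CPM against 0.585, 1.62 and 4.64 CPM (log2 FC 3.57 and 1.82, p 4.53e-04) and led the list per kb on the rich side. CD2, an adhesion receptor of T cells and NK cells, read 4.06, 9.29 and 49.9 CPM against 1.38, 2.08 and 10.9 CPM (log2 FC 2.35 and 1.35, p 2.86e-04). LCK, the proximal kinase of T cell receptors and the most abundant per kb on the poor side, read 3.27, 7.05 and 12.3 CPM against 4.42, 8.54 and 23.1 CPM (log2 FC -0.58 and -0.60, p 0.12). CD3E, a chain of the receptor itself and chosen after its values were seen, read 0.156, 5.41 and 19.7 CPM against 0.285, 1.22 and 2.59 CPM (log2 FC 2.46 and 1.57, p 0.00125), and 7 rich tumors exceeded every poor one. LCK and CD3E thus had log2 FC of opposite sign. By edgeR QL 6 of the 10 rose with PTPRC over the 19 tumors (median slope 1.02). In 17 tumors, without the 2 highest, 0 passed, while the median slope was 1.07 and 6 of 10 were nominally positive.

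NK and cytotoxic genes, found for 19 of 21 names with 5 tested, gave 3 of 5 nominally higher (CCL5, GZMB and GZMK) and a median log2 FC of 1.81, but 0.19 without the 2 highest tumors. The sum read 3.94, 12.8 and 98.5 CPM against 6.55, 9.73 and 17.7 CPM (7.23 to 19.0 CPM in NAMs), and KLRF1, an NK receptor, had no more than 3 counts in any tumor. CCL5, a chemokine of activated lymphocytes, read 0.415, 3.29 and 44.2 CPM against 1.30, 2.58 and 5.86 CPM (log2 FC 1.81 and 0.11, p 0.015). CST7, an inhibitor of granule proteases and the most abundant per kb, read 0.219, 5.73 and 14.6 CPM against 0.404, 3.60 and 8.53 CPM (log2 FC 0.56 and 0.33, p 0.361), and GZMB, a killing protease, 0.249, 0.72 and 18.1 CPM against 0.122, 0.783 and 1.12 CPM (log2 FC 2.22 and 0.24, p 0.0108). The cytotoxic difference therefore sat in few tumors, with 3 rich sums above the highest poor sum. GZMK, another granule protease, had a log2 FC of 1.91 and 0.19 (p 0.0349). These 3 nominal genes rose with PTPRC by edgeR QL over the 19 tumors (list median slope 0.98). In the 17 tumors 0 passed and 0 of 5 were nominally positive, with a median slope of 0.27.

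Among B cell genes, 14 of 17 were found and 3 of 7 tested were nominally higher (BANK1, FCMR and CD22), with a median log2 FC of 1.10, or 0.36 without the 2 highest tumors. The sum did not set the sides apart, 269.8, 392 and 662 CPM against 198, 415 and 1353 CPM, with 345 to 627 CPM in NAMs and 0 rich tumors above the highest poor tumor. CD79A, a chain of the B cell receptor and the most abundant per kb, made up most of that sum with 213, 296 and 517 CPM against 179, 401 and 1337 CPM (log2 FC -0.53 and -0.56, p 0.107) and reached 289 to 571 CPM in NAMs. In PPGL group 2 alone the log2 FC of CD79A was 0.18, so its sign was the other one there. Whether reads counted to CD79A come from B cells was not tested. BANK1, a B cell scaffold, read 10.2, 72.8 and 154 CPM against 2.63, 6.77 and 86.0 CPM (log2 FC 1.65 and 1.79, p 0.025), and FCMR, the Fc receptor for IgM, 2.23, 5.40 and 14.7 CPM against 1.10, 2.63 and 6.43 CPM (log2 FC 1.10 and 0.62, p 0.0116). CD22, a B cell lectin, read 1.44, 2.46 and 11.5 CPM against 0.653, 1.38 and 2.98 CPM (log2 FC 1.50 and 0.79, p 0.00399), and CXCR5, the follicle homing receptor, had no more than 3 counts in any tumor. FCMR and CD22 rose with PTPRC by edgeR QL over the 19 tumors (slopes 0.71 and 0.83, adjusted p = 3.65e-04 and 2.99e-05). For 17 tumors their edgeR QL slopes were 0.78 and 0.77 (adjusted p = 0.245 and 0.223), and 3 of 7 B cell genes were nominally positive.

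Plasma cell genes were all found (10 of 10), and 3 of 6 tested were nominally higher (JCHAIN, IGHM and PRDM1), with a median log2 FC of 1.02, or 0.18 without the 2 highest tumors. The sum read 130.0, 226 and 3450.4 CPM against 131, 181 and 319 CPM, with 183 to 358 CPM in NAMs, and its highest value was group 2 replicate 11. IGHM, the heavy chain of IgM, read 6.59, 16.5 and 1731 CPM against 0.323, 4.22 and 7.34 CPM (log2 FC 5.68 and 2.01, p 2.18e-04), and 8 of 9 rich tumors exceeded every poor one. JCHAIN, which joins antibody multimers and led the list per kb on the rich side, read 23.1, 72.7 and 1310.3 CPM against 18.2, 42.6 and 77.5 CPM (log2 FC 2.28 and 0.56, p 0.00293). XBP1, a secretory regulator also active in other secreting cells and the most abundant per kb on the poor side, read 74.5, 119 and 217 CPM against 82.3, 124.7 and 207 CPM (log2 FC -0.02 and -0.20, p 0.932). PRDM1, which drives plasma cell differentiation, read 4.36, 14.9 and 73.2 CPM against 1.41, 6.96 and 14.8 CPM (log2 FC 1.72 and 0.96, p 0.00305). Without group 2 replicate 11 alone the log2 FC of IGHM was 1.97 and that of JCHAIN 0.68. The 3 nominal genes rose with PTPRC by edgeR QL over the 19 tumors (list median slope 0.80). Of the list 0 did without the 2 highest, with a median slope of 0.60 and 3 of 6 nominally positive.

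Macrophage and monocyte genes were found for 25 of 29 names, and 20 of 24 tested were nominally higher, 0 lower. The median log2 FC was 1.41 beside -0.07 over all genes, and 0.72 without the 2 highest tumors. Summed, the list read 572, 1121 and 3878 CPM against 292, 498 and 1159 CPM and 477 to 1938 CPM in NAMs, with group 2 replicate 9 highest and 3 rich tumors above group 1 replicate 2. C1QA, C1QB and C1QC encode the chains of C1q, which tissue macrophages make, and C1QB was the most abundant of the list per kb. They read 71.2, 151 and 678 CPM against 35.9, 73.4 and 178 CPM (log2 FC 1.32 and 0.77, p 0.00317), 106, 203 and 874 CPM against 42.2, 99.5 and 199 CPM (log2 FC 1.45 and 0.90, p 0.00117) and 121, 237 and 935 CPM against 41.1, 127 and 230.1 CPM (log2 FC 1.36 and 0.82, p 0.00242). By edgeR QL 22 of the 24 rose with PTPRC over the 19 tumors (median slope 0.81). In the 17 tumors without the 2 highest the median slope was 0.73 and 16 of 24 were nominally positive. Without the 2 highest, MS4A7, a membrane protein of macrophages (slope 1.22, edgeR QL adjusted p = 0.0103), and SPI1, the myeloid transcription factor PU.1 (slope 1.03, adjusted p = 0.0209), still did. MS4A7 read 3.93, 13.0 and 54.7 CPM against 2.16, 3.26 and 6.99 CPM (log2 FC 2.08 and 1.46, p 1.59e-04), with 8 rich tumors above all poor ones, and SPI1 4.77, 11.4 and 50.4 CPM against 2.94, 4.22 and 9.74 CPM (log2 FC 1.70 and 1.07, p 9.91e-04), with 6. Macrophage sums of rich tumors lay within the NAM range except in group 2 replicates 9 and 11.

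Complement genes were found for 17 of 21 names and 9 of 16 tested were nominally higher, with a median log2 FC of 1.34, or 0.54 without the 2 highest tumors. The sum read 1043, 1278.5 and 5441 CPM against 563, 986 and 1580.3 CPM, with 1499.9 to 3076 CPM in NAMs and 4 rich tumors above all poor ones. C1QB led the list per kb on the rich side and SERPING1, the inhibitor of C1, on the poor side. SERPING1 read 270.0, 324 and 1261 CPM against 110.1, 352 and 1125 CPM (log2 FC 0.27 and -0.18, p 0.54). By edgeR QL 12 of the 16 rose with PTPRC (median slope 0.73), and without the 2 highest tumors 0 passed, at a median slope of 0.74 and with 7 of 16 nominally positive.

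Neutrophil genes were found for 14 of 18 names with 8 tested, and 5 were nominally higher, among them CSF3R, S100A12, LTF and FPR2. Their median log2 FC was 1.68, or 1.06 without the 2 highest tumors. Sums read 172, 640.1 and 1317 CPM against 72.4, 262 and 863 CPM, with 46.8 to 140.3 CPM in NAMs, and 2 rich tumors exceeded the highest poor tumor. S100A8, a calcium-binding alarmin and the most abundant per kb, read 158, 605 and 849 CPM against 54.8, 256 and 857 CPM (log2 FC 0.62 and 0.72, p 0.266), with 40.4 to 121 CPM in NAMs. CSF3R, the receptor for granulocyte colony-stimulating factor, read 1.71, 3.84 and 416 CPM against 0.162, 1.20 and 10.2 CPM (log2 FC 4.22 and 1.71, p 0.00269), and S100A12, another alarmin, 0.45, 1.92 and 128 CPM against 0.121, 2.00 and 5.46 CPM (log2 FC 3.38 and 2.06, p 0.00489). Group 2 replicate 11 held the highest value of both, and without it alone the log2 FC were 1.58 and 1.91. By exact Mann-Whitney 0 of the 8 neutrophil genes had an unadjusted p under 0.05. LTF, an iron-binding granule protein, had a log2 FC of 1.97 and 1.31 (p 0.0127), and FPR2, a chemotactic receptor, 1.39 and 1.28 (p 0.0397). Over the 19 tumors 4 of the 8 rose with PTPRC by edgeR QL (median slope 0.81), and 0 without group 2 replicate 11. With both highest tumors left out 0 passed as well, with a median slope of 0.95 and 4 of 8 nominally positive.

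Mast cell, dendritic cell and erythroid genes were sparse. Of mast cell genes 6 of 7 were found and 0 of 2 tested were nominal (median log2 FC 1.25, or 0.41 without the 2 highest tumors). Their sum read 6.21, 11.3 and 49.4 CPM against 0.525, 5.33 and 14.6 CPM and 2.45 to 6.70 CPM in NAMs. CPA3, a mast cell carboxypeptidase and the most abundant per kb, read 1.81, 8.51 and 25.2 CPM against 0, 3.89 and 10.4 CPM (log2 FC 1.08 and 1.29, p 0.137), and CMA1, a chymase, 0, 0.541 and 7.93 CPM against 0.0406, 0.384 and 1.56 CPM (log2 FC 1.41 and -0.48, p 0.167). HDC, which makes histamine, reached 41.1 CPM in group 1 replicate 5 and was chosen after its values were seen. Dendritic cell genes, found for 9 of 11 names, gave 2 of 7 nominally higher (BATF3 and CD80) and a median log2 FC of 0.51, or -0.07 without the 2 highest tumors. The sum was 23.2, 31.0 and 95.1 CPM against 12.9, 22.9 and 71.9 CPM, with 38.2 to 183 CPM in NAMs, so the median of each side lay below the lowest NAM. CD83, a maturation marker and the most abundant per kb, read 3.67, 8.64 and 29.2 CPM against 1.87, 4.80 and 49.4 CPM (log2 FC 0.13 and -0.08, but 0.94 without group 2 replicate 10, its highest tumor), FLT3, a growth factor receptor of their precursors, 4.76, 7.44 and 13.1 CPM against 2.07, 6.34 and 31.0 CPM (log2 FC 0.09 and -0.09, p 0.814), and ZBTB46, a lineage factor, 3.06, 5.22 and 8.79 CPM against 1.03, 2.44 and 15.6 CPM (log2 FC 0.51 and 0.51, p 0.218). BATF3, a factor for cross-presenting cells, had a log2 FC of 1.54 and 1.17 (p 0.0152), and CD80, a costimulatory ligand, 1.99 and 0.74 (p 0.0101).

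Erythroid genes, which also report blood left in the tissue, were found for 10 of 16 names, with 2 of 3 tested nominally higher (ALAS2 and HBM) and a median log2 FC of 2.58, or 0.56 without the 2 highest tumors. The sum read 3.49, 8.92 and 64.2 CPM against 0.566, 4.13 and 12.4 CPM, with 1.23 to 2.84 CPM in NAMs. ALAS2, the heme synthesis enzyme of red cell precursors, read 0.251, 1.25 and 41.5 CPM against 0.0404, 0.96 and 2.61 CPM (log2 FC 2.58 and 0.56, p 0.0122), and HBM, a globin and the most abundant per kb on the rich side, 0, 1.50 and 28.3 CPM against 0, 0.42 and 0.859 CPM (log2 FC 3.63 and 3.49, p 0.00229). HEMGN, a nuclear factor of precursors, read 0.259, 1.01 and 4.37 CPM against 0.0808, 1.34 and 7.33 CPM (log2 FC -0.27 and -0.13, p 0.699), and AHSP, a globin chaperone, led per kb on the poor side. Without group 1 replicate 2 the log2 FC of HEMGN was 0.39, so its sign was the other one there. ALAS2 was highest in group 2 replicate 11 and HBM in group 1 replicate 3, without which the log2 FC of HBM was 2.69, so erythroid genes were uneven among rich tumors.

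MHC class I genes, which show peptides to cytotoxic T cells, were found for 12 of 16 names, and 4 of 12 tested were nominally higher (TAP1, PSMB9, NLRC5 and ERAP2). The median log2 FC was 0.73, or 0.37 without the 2 highest tumors, beside -0.07 over all genes. The sum read 2314, 3102 and 9189 CPM against 772, 2378 and 3784 CPM, with 1713 to 2996 CPM in NAMs. B2M, the shared light chain and the most abundant per kb, read 791, 1255 and 5461 CPM against 264, 924 and 1663 CPM (log2 FC 0.79 and 0.30, p 0.0618). DLA-64, a class I heavy chain, read 398, 559 and 1150.4 CPM against 65.1, 326 and 832 CPM (log2 FC 0.67 and 0.61, p 0.104), and TAPBP, the loading chaperone tapasin, 277, 319 and 626 CPM against 174, 299.8 and 492 CPM (log2 FC 0.17 and 0.05, p 0.445). TAP1, a peptide transporter, had a log2 FC of 0.84 and 0.48 (p 0.00835), PSMB9, an immunoproteasome subunit, 1.13 and 0.90 (p 0.0121), NLRC5, the regulator of the class, 1.17 and 0.81 (p 0.00618), and ERAP2, a peptide trimmer, 1.81 and 0.15 (p 0.0192). The class I median lay below that of class II, a difference that was not tested. Group 2 replicate 9 had the highest level of B2M, DLA-64 and TAPBP.

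Interferon-stimulated genes were found for 30 of 39 names, and 13 of 30 were nominally higher (median log2 FC 1.03). Without the 2 highest tumors the median was 0.13, with 0 nominally higher and 2 lower. The sum read 839.5, 1231 and 6305 CPM against 574, 942 and 1568 CPM, with 627 to 1389 CPM in NAMs and 2 rich tumors above all poor ones. IFI6, a mitochondrial antiviral protein and the most abundant per kb, read 83.8, 406 and 1074 CPM against 0.808, 328 and 775 CPM (log2 FC 0.48 and 0.66, p 0.475). MX2, a dynamin-like antiviral GTPase, read 24.2, 91.2 and 1331.5 CPM against 19.5, 88.2 and 219 CPM (log2 FC 1.10 and -0.18, p 0.121). Group 2 replicate 9 held the highest sum, while that of group 2 replicate 11 (1348 CPM) lay below the highest poor tumor. Without group 2 replicate 11 alone 12 of 30 were nominally higher, with a median log2 FC of 0.95, and without group 2 replicate 9 alone the median was 0.22. Over the 19 tumors 16 of the 30 rose with PTPRC by edgeR QL (median slope 0.62), and 0 without the 2 highest (median slope 0.27, 2 of 30 nominally positive).

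Genes responding to interferon gamma were found for 11 of 16 names, 6 of 9 were nominally higher, and the median log2 FC was 1.75, or 1.01 without the 2 highest tumors. Sums read 185, 262 and 848 CPM against 109.9, 196 and 281 CPM, with 209 to 324 CPM in NAMs and 4 rich tumors above all poor ones. WARS1, a tryptophan tRNA ligase and the most abundant per kb, read 121, 161 and 307 CPM against 79.8, 147 and 186 CPM (log2 FC 0.38 and 0.39, p 0.0953). ICAM1, an adhesion molecule, read 9.24, 18.4 and 346 CPM against 3.08, 6.92 and 56.0 CPM (log2 FC 2.21 and 1.88, p 0.0137), and IRF1, a transcription factor, 19.2, 39.6 and 229.5 CPM against 8.37, 18.6 and 39.6 CPM (log2 FC 1.75 and 1.67, p 0.00208). Group 2 replicate 4 held the highest sum of all tumors (848 CPM), and without it the log2 FC of ICAM1 was 1.41. By edgeR QL 7 of the 9 rose with PTPRC (median slope 0.73, or 0.94 without the 2 highest). CXCL10, a chemokine for T cells, and GBP1, an antimicrobial GTPase, still did by edgeR QL without the 2 highest tumors (slopes 2.59 and 1.31, adjusted p = 0.0172 and 0.0172). In those 17 tumors group 2 replicate 4 had the highest PTPRC, and the fit was not repeated without it. CXCL10 read 0, 1.40 and 47.3 CPM against 0.162, 0.48 and 1.14 CPM (log2 FC 4.57 and 3.86, p 2.91e-04) and GBP1 2.33, 9.79 and 92.3 CPM against 1.87, 5.81 and 6.92 CPM (log2 FC 2.26 and 1.48, p 6.23e-04).

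Chemokine ligands were found for 24 of 28 names with 16 tested, and 8 of 16 were nominally higher (median log2 FC 1.59, or 0.83 without the 2 highest tumors). Their sum read 88.3, 136 and 2402 CPM against 33.5, 74.0 and 404 CPM, with 112 to 514 CPM in NAMs. CXCL8, which draws neutrophils and led per kb on the rich side, read 4.55, 19.6 and 1665 CPM against 0.487, 1.41 and 184 CPM (log2 FC 2.63 and 0.76, p 0.0781), and without group 2 replicate 10 its log2 FC was 3.47. CCL7, which draws monocytes, read 7.86, 18.8 and 319.8 CPM against 2.54, 13.5 and 82.7 CPM (log2 FC 2.03 and 1.33, p 0.0283), and CXCL16, a ligand of activated T cells, 12.2, 16.7 and 127 CPM against 4.06, 9.07 and 17.4 CPM (log2 FC 1.96 and 1.24, p 6.79e-04). CCL14 led per kb on the poor side, while the ligands CCL26, CCL28 and CXCL11 had no more than 3 counts in any tumor. CXCL16 rose with PTPRC without the 2 highest tumors (edgeR QL slope 1.20, adjusted p = 0.00648). Chemokine receptors, found for 21 of 22 names, gave 2 of 8 nominally higher, CCR1 among them, a median log2 FC of 0.998 (0.50 without the 2 highest) and sums of 42.4, 72.8 and 389 CPM against 10.9, 42.2 and 155 CPM, with 55.4 to 309 CPM in NAMs. CXCR4, the receptor of CXCL12 and the most abundant per kb, read 16.2, 31.5 and 269 CPM against 4.00, 15.7 and 108 CPM (log2 FC 1.30 and 0.20, p 0.0649), with a log2 FC of 2.11 without group 2 replicate 10, and ACKR3, a scavenger of that ligand, 7.56, 13.3 and 37.0 CPM against 2.38, 7.98 and 27.9 CPM (log2 FC 0.83 and 0.67, p 0.108). CCR1, a receptor of monocytes, read 2.32, 6.28 and 41.4 CPM against 0.701, 1.85 and 9.29 CPM (log2 FC 1.91 and 0.88, p 0.00508).

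Cytokine genes were all found (25 of 25) with 17 tested, and 7 of 17 were nominally higher, with a median log2 FC of 1.05, or 0.32 without the 2 highest tumors. The sum read 126, 377 and 1341.5 CPM against 98.3, 148 and 266 CPM, with 279 to 599 CPM in NAMs, and 7 rich tumors exceeded every poor one. SPP1, the macrophage product osteopontin and the most abundant per kb, read 11.7, 249 and 744 CPM against 8.44, 42.5 and 120.3 CPM (log2 FC 2.73 and 2.38, p 5.70e-04). IL33, an alarmin of stroma, read 8.25, 26.7 and 160.4 CPM against 8.12, 30.2 and 116 CPM (log2 FC 0.09 and -0.79, p 0.868), and IL34, a ligand of the CSF1 receptor, 22.0, 31.3 and 69.8 CPM against 9.54, 25.2 and 51.5 CPM (log2 FC 0.31 and 0.03, p 0.364). The share of SPP1 in the cytokine sum was not the same in every rich tumor. Its lowest rich value was 11.7 CPM, while no rich sum lay below 126 CPM. Immune checkpoint genes were also all found (18 of 18), with 3 of 10 nominally higher (IDO1, CD274 and VSIR) and a median log2 FC of 0.52, or 0.11 without the 2 highest tumors. Their sum was 184, 312 and 875 CPM against 150.2, 249 and 397 CPM, with 183 to 576 CPM in NAMs. LGALS9, a galectin that led per kb on the rich side, read 64.1, 111 and 595 CPM against 18.1, 83.6 and 217 CPM (log2 FC 0.83 and 0.30, p 0.103), TNFRSF18, a costimulatory receptor that led on the poor side, 4.57, 47.9 and 123 CPM against 9.38, 62.4 and 89.1 CPM (log2 FC 0.05 and 0.16, p 0.919), and TOX, a factor of exhausted T cells, 1.19, 39.3 and 83.0 CPM against 1.51, 22.4 and 192 CPM (log2 FC -0.72 and -0.44, p 0.342). IDO1, which degrades tryptophan, read 0.986, 5.04 and 71.6 CPM against 0.525, 0.865 and 6.43 CPM (log2 FC 2.44 and 1.01, p 0.0064), CD274, which encodes PD-L1, 3.01, 5.36 and 24.8 CPM against 1.52, 3.62 and 6.51 CPM (log2 FC 1.17 and 0.44, p 0.0154), and VSIR, a myeloid checkpoint ligand, 9.69, 22.0 and 108 CPM against 2.60, 8.40 and 15.4 CPM (log2 FC 2.16 and 1.95, p 3.17e-04).

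Lymphoid stroma genes, which mark organized lymphoid tissue, were found for 7 of 9 names, with 2 of 3 tested nominally higher (CCL19 and LTB) and a median log2 FC of 1.86, or 1.55 without the 2 highest tumors. Sums were low, 1.94, 2.93 and 39.8 CPM against 0.731, 1.73 and 5.28 CPM, with 0.731 to 8.04 CPM in NAMs. TNFSF11, the cytokine RANKL and the most abundant per kb, read 0.136, 1.82 and 32.2 CPM against 0, 1.14 and 4.66 CPM (log2 FC 1.84 and 1.91, p 0.0852), CCL19, a chemokine of T cell zones, 0.1253, 1.08 and 6.15 CPM against 0, 0.412 and 0.855 CPM (log2 FC 2.11 and 1.55, p 0.00921), and LTB, a lymphotoxin chain, 0, 0.99 and 5.00 CPM against 0.162, 0.28 and 0.816 CPM (log2 FC 1.86 and 1.07, p 0.0152). Without the 2 highest tumors 0 of the 3 were nominal, nor was any with PPGL group as covariate or by exact Mann-Whitney. On PTPRC over the 19 tumors CCL19 and LTB rose by edgeR QL (median slope of the 3 0.996), and without the 2 highest 0 passed while all 3 were nominally positive (median slope 1.33). Group 2 replicate 4 held the highest lymphoid stroma sum, and without it the log2 FC of TNFSF11 was 0.45. CXCL13, a follicle chemokine, had a count of 0 in every poor tumor and reached 11.7 CPM on the rich side, and it was chosen after its values were seen.

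Non-leukocyte lists were read to see what else the ranking carried. Of all genes 6.64% were nominally higher and 5.24% lower on the rich side. Endothelial genes were all found (24 of 24), and 4 of 24 were nominally higher (PECAM1, FLT1, SELE and VCAM1), with a median log2 FC of 0.57, or 0.34 without the 2 highest tumors, beside -0.07 over all genes. The sum read 973, 1636 and 2581 CPM against 419.7, 1067 and 1755 CPM, with 889 to 2238 CPM in NAMs. PLVAP, a protein of fenestrated vessels and the most abundant per kb, read 186, 254 and 654 CPM against 64.2, 171 and 538 CPM (log2 FC 0.55 and 0.52, p 0.149). PECAM1, a junction protein shared with leukocytes, read 100.2, 149.6 and 348 CPM against 33.4, 98.0 and 231 CPM (log2 FC 0.73 and 0.49, p 0.0391), and PROX1, a factor of lymphatic endothelium, 7.28, 51.2 and 288 CPM against 31.5, 145 and 557 CPM (log2 FC -0.85 and -0.60, p 0.169). FLT1, a VEGF receptor, had a log2 FC of 0.86 and 0.64 (p 0.0334) and SELE, a selectin of inflamed vessels, 3.94 and 4.12 (p 0.0102), but 1.19 without group 2 replicate 4 and 4.83 without group 2 replicate 3. VCAM1, an adhesion molecule of activated vessels and stroma, read 11.4, 33.1 and 577 CPM against 1.41, 9.84 and 27.0 CPM (log2 FC 3.30 and 2.39, p 7.04e-04). It rose with PTPRC by edgeR QL with the 2 highest tumors and without them (slopes 1.64 and 2.01, adjusted p = 1.04e-05 and 0.0103).

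Fibroblast genes were all found (15 of 15), 12 of 14 were nominally higher, and the median log2 FC was 2.73, or 1.02 without the 2 highest tumors. Summed levels read 1163, 3913 and 29919 CPM against 899, 2831 and 6537 CPM, with 742 to 1402 CPM in NAMs, and 2 rich tumors exceeded group 1 replicate 6, the highest poor tumor. THY1, a surface glycoprotein also found on neurons and the most abundant per kb, read 108, 1343 and 4081 CPM against 28.4, 2283 and 6065 CPM (log2 FC -0.87 and -0.74, p 0.294). COL1A1 and COL3A1, the fibrillar collagens, read 132, 466 and 7225 CPM against 23.1, 91.1 and 1029.7 CPM (log2 FC 3.01 and 1.73, p 0.0019) and 206, 535 and 7395 CPM against 55.1, 149.7 and 767 CPM (log2 FC 2.95 and 1.65, p 5.75e-04), and both were highest in group 2 replicate 11. Without group 1 replicate 7 the log2 FC of COL1A1 was 3.90. The collagens and THY1 thus had log2 FC of opposite sign. Over the 19 tumors 12 of the 14 rose with PTPRC by edgeR QL (median slope 1.29). With the 2 highest left out 0 passed, the median slope was 0.99 and 10 of 14 were nominally positive.

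Pericyte and smooth muscle genes were all found (10 of 10), with 6 of 10 nominally higher, a median log2 FC of 1.42 (0.54 without the 2 highest) and sums of 1151, 1714 and 5445.5 CPM against 468, 1705 and 4502 CPM, NAMs 476 to 1755 CPM. RGS5, a pericyte signaling regulator and the most abundant per kb, read 144, 1177 and 1799 CPM against 23.8, 1443 and 4135 CPM (log2 FC -0.44 and -0.38, p 0.438). TAGLN and ACTA2, proteins of contractile actin filaments, read 51.3, 117 and 1267 CPM against 15.5, 47.4 and 137 CPM (log2 FC 2.11 and 0.96, p 0.00381) and 29.8, 93.5 and 1046.5 CPM against 15.8, 37.2 and 97.5 CPM (log2 FC 2.27 and 1.11, p 0.0017). TAGLN and ACTA2 thus had log2 FC of the same sign as the collagens and RGS5 of the opposite sign.

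**Figure D3:**
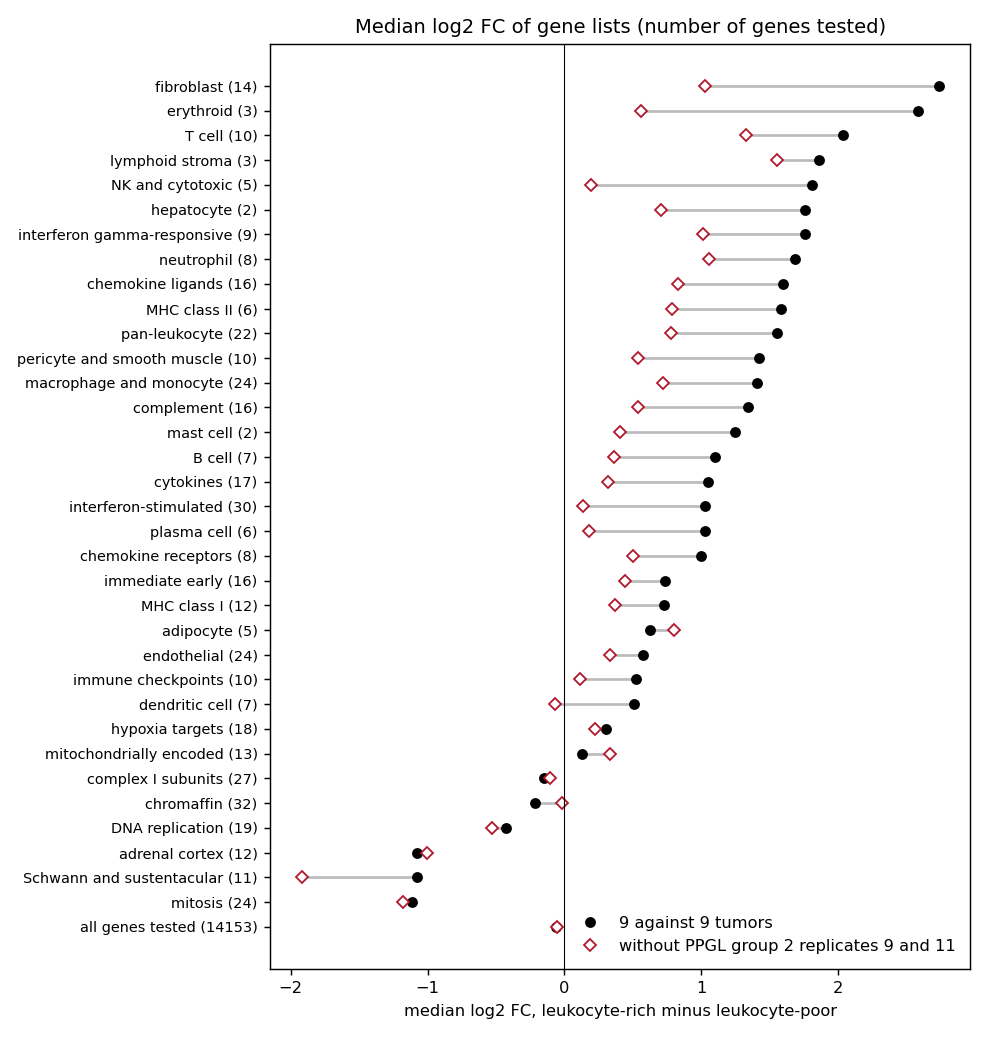
Median log2 FC of each list, leukocyte-rich minus leukocyte-poor, with all 18 tumors (black) and without PPGL group 2 replicates 9 and 11 (open red). The number of genes tested stands beside each name.

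Chromaffin genes were found for 33 of 35 names, and 1 was nominally higher (SYT1) and 4 lower (DBH, PNMT, GATA3 and ELAVL4) of 32 tested, with a median log2 FC of -0.22, or -0.02 without the 2 highest tumors. The sum read 36483, 56716 and 166507 CPM against 13428.5, 84342 and 186046 CPM, with 27782 to 113551 CPM in NAMs, and the lowest value was group 1 replicate 7. PENK, the enkephalin precursor and the most abundant per kb, read 808, 23579 and 59353 CPM against 0.162, 7127 and 76699 CPM (log2 FC 0.72 and 0.71, p 0.581), with a log2 FC of 1.49 without group 1 replicate 6, and CHGB, a secretory granule protein, 7173.5, 15158 and 74037 CPM against 32.7, 27879 and 83150.4 CPM (log2 FC -0.51 and -0.34, p 0.524). DBH, which turns dopamine into noradrenaline, read 2275, 4416 and 16954 CPM against 6266.5, 18735 and 27212.5 CPM (log2 FC -1.40 and -1.21, p 0.00393), and GATA3, a lineage factor, 0.405, 18.9 and 134 CPM against 45.3, 138 and 665 CPM (log2 FC -2.94 and -2.77, p 0.00266). Both fell as PTPRC rose over the 19 tumors by edgeR QL (slopes -0.66 and -1.50, adjusted p = 0.0386 and 0.045). Without the 2 highest tumors the edgeR QL slopes were -0.76 and -2.50 (adjusted p = 0.452 and 0.241). PNMT, which makes adrenaline, had a log2 FC of -2.30 and -2.05 (p 0.0142, log2 FC -1.30 without group 1 replicate 2), ELAVL4, a neuronal RNA-binding protein, -1.51 and -1.67 (p 0.00347), and SYT1, a sensor of vesicle fusion, 0.88 and 1.04 (p 0.036). Of the 32 genes 12 had a positive log2 FC, and the median sum was lower on the rich side. Nominal shares over all genes were 6.64% higher and 5.24% lower. The median DBH of the rich side lay below the lowest poor tumor.

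Schwann and sustentacular genes, of the supporting cells of the medulla, were found for 13 of 14 names, with 0 nominally higher and 3 lower (NGFR, SOX10 and CDH19) of 11 tested. The median log2 FC was -1.08, or -1.92 without the 2 highest tumors. In PPGL group 2 alone the median was -0.51 with 1 nominally lower, and by exact Mann-Whitney 0 of 11 had an unadjusted p under 0.05. Over the 19 tumors 0 of 11 slopes on PTPRC were nominal and 4 were positive (median -0.32), and without the 2 highest 5 were nominally negative (median -1.43). Sums read 26.1, 92.3 and 252 CPM against 38.4, 199 and 778 CPM, with 113 to 337 CPM in NAMs and the highest value in group 1 replicate 2. NGFR, a neurotrophin receptor and the most abundant per kb on the poor side, read 4.31, 9.14 and 62.8 CPM against 8.99, 28.7 and 694 CPM (log2 FC -2.86 and -3.25, p 0.00309), and its log2 FC was -2.06 without that tumor. EGR2, a myelin factor that macrophages also induce and the most abundant per kb on the rich side, read 1.79, 20.4 and 112 CPM against 0.0541, 5.52 and 45.1 CPM (log2 FC 1.31 and 1.23, p 0.183), and ERBB3, the neuregulin receptor, 0.721, 13.8 and 45.0 CPM against 1.83, 9.99 and 76.3 CPM (log2 FC -0.16 and -0.27, p 0.82). SOX10, the glial lineage factor, had a log2 FC of -2.13 and -2.81 (p 0.0205), and CDH19, a glial cadherin, -2.11 and -2.80 (p 0.0241).

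Adrenal cortex genes may report cortex dissected with the tumor. They were found for 13 of 14 names, 0 of 12 tested were nominal, and the median log2 FC was -1.08, or -1.002 without the 2 highest tumors. The sum read 124.7, 3299 and 7347 CPM against 177, 1092 and 33574 CPM, with 14875 to 62601 CPM in NAMs and the highest tumor value in group 2 replicate 10. STAR, the cholesterol carrier of steroid synthesis and the most abundant per kb, read 36.5, 614 and 1146 CPM against 20.4, 894 and 3752 CPM (log2 FC -1.08 and -0.97, p 0.185). CYP17A1 and HSD3B2, steroid enzymes, read 0.251, 949 and 2616 CPM against 0.0404, 96.8 and 11343.5 CPM (log2 FC -1.21 and -1.11, p 0.439) and 0.0627, 374 and 1358 CPM against 0, 53.5 and 5793 CPM (log2 FC -1.39 and -1.34, p 0.38). With PPGL group as a covariate 8 were nominally lower on the rich side (median log2 FC -1.86), and in PPGL group 2 alone 6 of 13 were (median log2 FC -1.87). Without group 2 replicate 10 the list median was 0.126, with CYP17A1 at 0.16 and HSD3B2 at -0.03. The median sum was higher on the rich side, and the median slope on PTPRC was -0.23, or 0.96 without the 2 highest tumors with all 12 positive and 0 nominal. The sign of the cortical difference thus depended on the fit and on single tumors.

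Genes of tissues that may adhere to a tumor were few. Adipocyte genes were found for 7 of 8 names, with 0 of 5 tested nominal, a median log2 FC of 0.63 (0.80 without the 2 highest tumors) and sums of 9.27, 34.3 and 152 CPM against 5.83, 26.9 and 53.5 CPM, NAMs 53.4 to 95.2 CPM. LPL, a lipase also made by macrophages and the most abundant per kb, read 4.24, 22.4 and 50.2 CPM against 1.68, 6.25 and 52.8 CPM (log2 FC 0.86 and 0.86, p 0.12), PLIN4, a lipid droplet protein, 0.197, 1.88 and 25.00 CPM against 0.202, 1.98 and 39.9 CPM (log2 FC -0.45 and -0.12, p 0.652), and FABP4, a fatty acid carrier, 0, 0.54 and 33.9 CPM against 0, 0.438 and 13.0 CPM (log2 FC 0.91 and 1.22, p 0.523). The signs changed with single tumors, the list median to -0.94 without group 2 replicate 6, PLIN4 to 1.04 without group 1 replicate 4 and FABP4 to -1.20 without group 2 replicate 6 as well. Without group 1 replicate 6 the log2 FC of FABP4 was 2.39, and PLIN4 had -1.24 without group 2 replicate 6. On PTPRC over the 19 tumors the median adipocyte slope was -0.39, with 1 of 5 positive and 1 nominally negative by edgeR QL. Without the 2 highest tumors it was -0.25, with 2 of 5 positive. Hepatocyte genes were found for 6 of 7 names, with 1 of 2 nominally higher (SERPINA1), a median log2 FC of 1.75 (0.70 without the 2 highest tumors), and sums of 35.2, 59.7 and 594 CPM against 14.7, 29.9 and 92.8 CPM, NAMs 31.7 to 152 CPM. SERPINA1, a protease inhibitor that myeloid cells also make, read 7.52, 32.9 and 579 CPM against 2.48, 7.25 and 20.9 CPM (log2 FC 3.31 and 1.46, p 5.83e-04), and APOA1, a lipoprotein and the most abundant per kb, 4.82, 26.9 and 107 CPM against 0.889, 26.3 and 71.0 CPM (log2 FC 0.20 and -0.05, p 0.756). TTR, a liver carrier protein, had no more than 3 counts in any tumor. Kidney genes were all found (6 of 6) but none was high enough to test, and the tubule genes UMOD and SLC34A1 had no more than 3 counts in any tumor. Kidney sums were 0, 0.501 and 1.04 CPM against 0.206, 0.528 and 1.49 CPM, with 0.925 to 5.33 CPM in NAMs and SLC22A6 (rich) and AQP2 (poor) the most abundant per kb.

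Mitosis genes were found for 24 of 26 names, with 0 nominally higher and 8 lower of 24 tested, and all 24 had a negative log2 FC (median -1.12, or -1.18 without the 2 highest tumors). The sum read 83.3, 175 and 427 CPM against 79.0, 293 and 3271 CPM, with 46.0 to 196 CPM in NAMs and UBE2C, a ubiquitin-conjugating enzyme of mitosis, most abundant per kb. TOP2A, which untangles DNA, read 7.94, 19.7 and 67.5 CPM against 6.76, 35.2 and 804 CPM (log2 FC -1.71 and -1.90, p 0.0307). MKI67, the marker Ki-67, read 9.70, 13.3 and 25.8 CPM against 4.22, 19.99 and 349 CPM (log2 FC -1.67 and -1.79, p 0.0146), and CENPF, a centromere protein, 3.98, 7.66 and 24.3 CPM against 3.03, 13.4 and 315 CPM (log2 FC -2.17 and -2.25, p 0.00574). Each was highest in group 1 replicate 7, and without it their log2 FC were -0.18, -0.40 and -0.78. Without that tumor 0 mitosis genes were nominal and the median log2 FC was -0.30, so most of the difference came with it. Within PPGL group 2 alone 0 were nominal and the median log2 FC was -0.28.

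DNA replication genes were all found (19 of 19), with 0 nominally higher and 4 lower (RRM1, TYMS, CDC45 and POLE) and a median log2 FC of -0.43, or -0.53 without the 2 highest tumors. Sums read 415, 717 and 1120.4 CPM against 520.0, 687 and 2662 CPM, with 383 to 535 CPM in NAMs. MCM6 and MCM7, subunits of the replicative helicase, read 63.0, 144 and 336 CPM against 51.3, 125.5 and 359 CPM (log2 FC 0.20 and 0.43, p 0.61) and 71.0, 148 and 231 CPM against 68.8, 122 and 346 CPM (log2 FC -0.06 and -0.02, p 0.817). RRM1, which makes deoxynucleotides, read 44.9, 57.6 and 114 CPM against 63.4, 81.0 and 154 CPM (log2 FC -0.47 and -0.41, p 0.0301). TYMS, which makes thymidylate, had a log2 FC of -0.73 and -0.64 (p 0.004), CDC45, a helicase cofactor, -1.93 and -2.07 (p 0.0497), and POLE, a polymerase, -1.76 and -1.96 (p 0.0278). Without group 1 replicate 7 the list had 1 gene nominally lower and a median log2 FC of -0.001, with CDC45 at 0.01 and POLE at -0.01. Per kb MCM6 led on the rich side and PCNA, the sliding clamp, on the poor side.

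Hypoxia targets were found for 19 of 21 names, with 3 of 18 nominally higher (SLC2A1, ANGPTL4 and HK2), a median log2 FC of 0.30 (0.22 without the 2 highest tumors) and sums of 1434, 2008 and 2755 CPM against 914, 1654.5 and 2273 CPM, NAMs 1233 to 1636 CPM. ADM, a vessel-relaxing peptide and the most abundant per kb, read 130.4, 552 and 1244 CPM against 3.31, 346 and 879 CPM (log2 FC 0.57 and 0.86, p 0.37), PGK1, a glycolytic enzyme, 259, 318 and 394 CPM against 268, 356 and 705 CPM (log2 FC -0.32 and -0.37, p 0.116), and VEGFA, the vessel growth factor, 193, 294 and 624 CPM against 45.0, 211 and 603 CPM (log2 FC 0.36 and 0.44, p 0.369). SLC2A1, a glucose carrier, had a log2 FC of 0.85 and 0.78 (p 0.00914), ANGPTL4, a lipase inhibitor, 1.81 and 1.26 (p 0.0052), and HK2, a hexokinase, 2.23 and 1.76 (p 0.00761). The hypoxia targets of highest level were thus not nominal. Beside the 3 of 18 targets, 6.64% of all genes were nominally higher.

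Complex I subunits of the respiratory chain were found for 27 of 38 names, with 0 nominally higher and 2 lower (NDUFB3 and NDUFV2), a median log2 FC of -0.15 (-0.10 without the 2 highest tumors) and sums of 1989, 2426 and 3258 CPM against 2249, 2533 and 3508 CPM, NAMs 2305.5 to 3293 CPM. The subunits NDUFS1 and NDUFA8 read 81.4, 175 and 248 CPM against 90.6, 187 and 232 CPM (log2 FC -0.17 and -0.12, p 0.413) and 139, 146 and 253 CPM against 117, 170.2 and 272 CPM (log2 FC -0.10 and -0.13, p 0.569). NDUFB3 and NDUFV2 had log2 FC of -0.40 and -0.35 (p 0.018) and -0.37 and -0.32 (p 0.0182). Beside these 2 of 27 subunits, 5.24% of all genes were nominally lower. Mitochondrially encoded genes were found for 13 of 26 names, with 0 of 13 nominal but all 13 of positive log2 FC, a median log2 FC of 0.13 (0.34 without the 2 highest tumors) and sums of 26695, 109432 and 137155 CPM against 38937, 68254 and 156795.5 CPM, NAMs 45342 to 137627 CPM. In PPGL group 2 alone 3 of the 13 had a positive log2 FC, and the median was -0.22. The cytochrome oxidase subunits MT-CO1, MT-CO2 and MT-CO3 read 3555, 30333 and 55282 CPM against 8005, 15165 and 46030.1 CPM (log2 FC 0.55 and 0.55, p 0.247), 4750.5, 13310.1 and 23190.1 CPM against 5113, 9789.9 and 18190.4 CPM (log2 FC 0.43 and 0.50, p 0.189) and 4632, 14668 and 18693 CPM against 6729, 9007 and 23761 CPM (log2 FC 0.11 and 0.18, p 0.74). In the slope without the 2 highest tumors 5 of the 13 were positive at an unadjusted edgeR QL p under 0.05, beside 729 of 14153 over all genes. Per kb NDUFA8 and MT-CO1 led on the rich side, and NDUFB2 and MT-ATP8 on the poor side.

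Immediate early genes, which handling of tissue induces within minutes, were all found (16 of 16), with 1 of 16 nominally higher (KLF6, a zinc finger factor, log2 FC 1.11 and 0.20, p 0.0313) and 0 lower, a share of 1 in 16 beside 6.64% over all genes. With PTPRC 3 of 16 rose by edgeR QL over the 19 tumors, KLF6 among them, and 15 slopes were positive (median 0.41). In 17 tumors, without the 2 highest, 0 rose and 0 of 16 were nominally positive (median slope 0.44). The median log2 FC was 0.74, or 0.44 without the 2 highest tumors, and sums read 385, 2378 and 4812 CPM against 132, 690.1 and 3768 CPM, NAMs 285 to 3703.5 CPM. EGR1, a growth-induced factor and the most abundant per kb on the poor side, read 38.3, 531 and 1273 CPM against 7.27, 241 and 1278 CPM (log2 FC 0.57 and 0.53, p 0.478). JUNB, an AP-1 subunit and the most abundant per kb on the rich side, read 69.3, 297 and 961 CPM against 21.8, 120.4 and 691 CPM (log2 FC 0.73 and 0.74, p 0.234), and FOS, its partner, 25.1, 323 and 575 CPM against 2.00, 53.4 and 538 CPM (log2 FC 0.86 and 0.84, p 0.325). These genes were thus uneven on both sides, and an effect of tissue handling on the comparison was not tested.

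Slopes on PTPRC of other lists are given here for the 19 tumors and then without the 2 highest. By edgeR QL 10 of 17 cytokines rose and then 0 (median slopes 0.72 and 0.67), 6 of 16 chemokine ligands and 2 (0.83 and 0.82), and 3 of 8 chemokine receptors and 0 (0.64 and 0.73). MHC class I had 3 of 12 and 0 (0.34 and 0.25), immune checkpoints 4 of 10 and 0 (0.41 and 0.23), and endothelial genes 4 of 24 and 1 (0.32 and 0.19). Pericyte and smooth muscle genes had 6 of 10 and 0 (0.74 and 0.55), and hypoxia targets 2 of 18 and 0 (0.12 and 0.15). Dendritic cell genes had 2 of 7 and 0 (0.38 and 0.58), erythroid genes 1 of 3 and 0 (1.13 and 0.27), and hepatocyte genes 1 of 2 and 0 (0.78 and 0.56). Mast cell genes had 0 of 2 and 0 (0.58 and 0.25), and 0 adipocyte, complex I or mitochondrially encoded genes passed in either set. For mitosis and DNA replication genes 0 passed in either set, with median slopes of -0.19 and -0.58 and of -0.11 and -0.23. Without group 1 replicate 7 alone their median slopes were -0.04 and 0.065, so the sign of the DNA replication median turned. By exact Mann-Whitney between the sides 17 of 22 pan-leukocyte, 19 of 24 macrophage, 5 of 6 MHC class II and 6 of 14 fibroblast genes were higher at an unadjusted p under 0.05. Those counts were 1 of 30 for interferon-stimulated genes, 2 of 16 for chemokine ligands and 0 of 5 for NK and cytotoxic genes. DESeq2 Wald at an adjusted p under 0.05 called 15 of 22 pan-leukocyte, 13 of 24 macrophage, 5 of 6 MHC class II and 8 of 14 fibroblast genes higher. It called 2 of 30 interferon-stimulated genes, 3 of 16 chemokine ligands and 0 of 5 NK and cytotoxic genes.

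PPGL group and side were not balanced. With PPGL group as a covariate edgeR QL called 0 genes, the lowest adjusted p being 0.247, with 777 nominal higher and 456 lower. In that fit 18 of 22 pan-leukocyte, 17 of 24 macrophage, 5 of 6 MHC class II and 7 of 14 fibroblast genes were nominally higher, against 19, 20, 5 and 12 without it (medians 1.49, 1.45, 1.38 and 2.30). Of other lists 3 of 30 interferon-stimulated genes, 4 of 16 chemokine ligands, 2 of 8 neutrophil and 1 of 5 NK and cytotoxic genes were nominally higher, against 13, 8, 5 and 3 without it (medians 0.74, 1.17, 1.62 and 1.69). Within PPGL group 2 alone, 7 rich against 4 poor tumors, edgeR QL called 0 of 14764 genes, with 740 nominal higher and 303 lower. In that group the median log2 FC was 1.71 for pan-leukocyte genes, 1.76 for macrophage genes, 1.65 for MHC class II genes and 3.15 for fibroblast genes. It was 0.177 for DNA replication genes, so its sign was the other one there. Group 2 replicates 9 and 11 are among those 7 rich tumors, and group 2 was not fitted without them. The edgeR QL test of a side by PPGL group interaction called 3 of 14153 genes (0.0212%) at an adjusted p under 0.05, each higher in rich relative to poor tumors of group 2 than of group 1. Among them DDC, which makes dopamine, and BAHCC1, a chromatin protein, had interaction log2 FC of 9.31 and 4.11. The 2 rich tumors of group 1, replicates 3 and 5, read 0.295 and 0.376 CPM of DDC, while DDC was 53.3 to 313 CPM in rich tumors of group 2. For BAHCC1 these 2 tumors read 1.92 and 5.42 CPM. TH, the first enzyme of catecholamine synthesis and chosen after its values were seen, read 11.1 and 2.26 CPM there. The rich side of group 1 holds only these 2 tumors.

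The slope on PTPRC was also fitted in the 10 NAMs, tissue without tumor. By edgeR QL 1 of 13168 genes rose (0.00759%) and 0 fell (0.0%) at an adjusted p under 0.05. At an unadjusted p under 0.05 edgeR QL counted 456 positive (3.46%) and 275 negative (2.09%). The gene called was CYBB, the oxidase subunit of phagocytes (edgeR QL slope 1.00, adjusted p = 0.0152), which ran from 3.53 to 28.3 CPM in NAMs. Without NAM replicate 3, 7 or 10 alone 0 genes were called, with lowest edgeR QL adjusted p of 0.143, 0.101 and 0.111. Nominally positive in NAMs were 15 of 21 pan-leukocyte, 21 of 24 macrophage, 5 of 5 MHC class II, 10 of 16 complement and 11 of 24 endothelial genes. Of T cell genes 1 of 4 (CD2), of interferon-stimulated genes 4 of 27 (the antiviral genes OAS2, SAMD9L and PARP14 among them) and of fibroblast genes 3 of 10 (the matrix genes COL3A1 and DCN and the receptor PDGFRA) were nominally positive. Slopes were not compared between NAMs and tumors by a test. In NAMs 0 of 6 plasma cell genes were nominally positive and 1 (XBP1) was nominally negative.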

How the data were processed

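RNA of 19 PPGLs and 10 NAMs was sequenced and read counts per gene were made by the authors. Per the submitters' processing notes and the labels, single-end reads were aligned with STAR to CanFam3.1 and counted over exons, and the raw counts deposited were used as they are. The deposited table is labeled featureCounts while the processing notes name HTSeq, so the 2 sources differ on the program, and the strand setting was not found in them. The table holds 30951 genes, of which 23467 had a count in a tumor and 18239 had a name, and 1974 genes sharing a name were set aside from the lists.

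CPM was the count times 1e6 over the column sum. The members and the 35 lists (637 genes, 542 found and 432 tested) were chosen with earlier results of these data known. Genes were tested in R 4.3.3 with edgeR 4.0.16 (edgeR QL: TMM factors, filterByExpr defaults, quasi-likelihood F test, Benjamini-Hochberg adjustment, threshold 0.05) and with DESeq2 1.42.0. Exact Mann-Whitney tests, permutations and tables used Python 3.11.15 with scipy 1.17.1, numpy 2.4.6 and pandas 2.3.3, and figures matplotlib 3.10.9. Slopes used log2 PTPRC CPM (TMM, prior count 2). PTPRC itself was left out of every count of genes. The edgeR fits were checked on simulated data.

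Named genes were PTPRC, the 3 tested genes of highest mean CPM in each list and any listed gene behind a count of 5 or fewer, the 5 genes of smallest p in each direction, and the 5 of highest and of lowest rank correlation with PTPRC. Genes called at an adjusted p in the 9 against 9 comparison were to be named as well, and there were 0. A few genes that this rule names are not reported here. Alternatives tried were other size factors, filters, tests and prior counts, PPGL group or a cortical score as covariate, PPGL group 2 alone, all 29 samples in the fit, 6 against 6 tumors, ranking by pan-leukocyte genes, each sample left out in turn, and a replicate block.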

Additional observations from a re-analysis of the deposited data

Results flagged for a closer look

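Within the rich side, the poor side and the NAMs, the most extreme value of each named gene, list sum and column total was marked when Dixon's gap test on log2(CPM + 1) passed its critical value. Of 660 groups looked at 69 were marked, and chance alone marks about 1 in 20, or 33.0. No value was removed. Some marked values lay at or under the floor of 3 counts and are not read as present. On the rich side these were CXCL11, KLRF1 and TTR, and in NAMs TTR, CXCL13, CCL28 and SLC34A1. On the poor side they were CCL26 and the values said below to lie near 0.

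On the rich side most marked values belong to 2 tumors. Group 2 replicate 11 was marked high for LCP1 (236 CPM), CD4 (178), JCHAIN (1310.3), IGHM (1731), STC2 (11.7), CXCL13 (11.7) and CXCL11 (0.0493), and for the sums of plasma cell genes (3450.4) and of pericyte and smooth muscle genes (5445.5). Group 2 replicate 9 was marked high for B2M (5461), TAPBP (626), MX2 (1331.5), TAP1 (782), PARP14 (131), SOX10 (8.18), KLRF1 (0.165), and the sums of MHC class I (9189) and interferon-stimulated genes (6305), and low for RGS5 (144). Other marked rich values were TNFRSF18 in group 1 replicate 3 (4.57, low), HDC and the total count in group 1 replicate 5 (41.1 CPM and 31919833 counts), TNFSF11 and TTR in group 2 replicate 4 (32.2 and 0.0832), FABP4 in group 2 replicate 6 (33.9), and in group 2 replicate 12 MT-CO1 (3555) and the mitochondrially encoded sum (26695), both low.

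The poor side was led by group 1 replicate 7. It was marked high for CD2 (10.9 CPM), ZBTB46 (15.6), CCL26 (0.0404), PCNA (251), CDC45 (83.2), POLE (203) and the DNA replication sum (2662), and low for IFI6 (0.808), TNFRSF18 (9.38), RGS5 (23.8), CHGB (32.7), ADM (3.31) and the chromaffin sum (13428.5). Group 1 replicate 2 was marked low for NDUFS1 (90.6), SLC2A1 (12.1) and NDUFB2 (31.0). The remaining poor values lay near 0: KLRF1 and SLC34A1 in group 1 replicate 1 (0.144 and 0.0960), CXCL11 in group 2 replicate 2 (0.146), TTR in group 2 replicate 5 (0.0412) and CXCR5 in group 2 replicate 10 (0.0407).

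Among NAMs, replicate 10 was marked high for DLA-DRA (949 CPM), IL33 (102), COL1A1 (128), SERPINA1 (33.3), KLRF1 (0.202), SLC34A1 (0.121) and the MHC class II sum (2282). Replicate 3 was marked for VEGFA (536) and TTR (0.0327), high, and for IL34 (25.6), APOA1 (21.5) and SEC31B (2.03), low. Replicate 4 was marked high for PROX1 (143) and CXCL13 (0.0278), and low for NDUFV2 (97.1), SERPING1 (553) and MT-CO2 (4631). Replicate 2 was marked high for CMA1 (1.28) and CCL28 (0.0399), replicate 6 low for JCHAIN (15.2), and replicate 7 high for CCL5 (7.79).

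The side by PPGL group interaction marked DDC (log2 FC 9.31) and BAHCC1 (4.11), whose difference between the sides was not the same in the 2 PPGL groups.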

How the results depend on the processing

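The count of genes called between the sides was 0 in either direction under other size factors, filters, prior counts, covariates and rankings. It moved to 297 higher and 63 lower with the DESeq2 Wald test, 308 and 78 with all 29 samples in the fit, and 806 and 94 with continuous log2 PTPRC. Leaving out each of the 18 tumors in turn gave 0 in either direction. With the sample number as a replicate block 0 were called, with 656 higher and 275 lower at unadjusted p under 0.05 and a lowest adjusted p of 0.524 by edgeR QL. The numbers do not pair samples: over 7 numbers the correlation between samples sharing a number was -0.116 to 0.049, and none was best with its own.

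Alternatives to the continuous fit were added after the data were seen. Its 806 genes rising and 94 falling became 24 and 0 without group 2 replicates 9 and 11, and 56 fell with library size alone. With each tumor left out in turn 252 to 830 rose and 4 to 147 fell, the lowest being without group 2 replicate 11. The cause of these changes was not tested. In NAMs the 1 gene called became 2 with the cortical score as covariate, and 2 genes were called falling with no filter. Leaving out each NAM gave 0 to 2 in either direction. The interaction called 3 genes in every setting.

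As 0 genes were called between the sides, no call could turn. Called or not, 131 of 5769 values of named genes had the other sign, in 45 of 170 genes, and 185 passed the adjusted threshold. Of 1122 list medians 60 moved. The median log2 FC over settings ran from 0.78 to 2.12 for pan-leukocyte genes, 0.72 to 2.00 for macrophage genes, 1.02 to 3.82 for fibroblast genes and -1.29 to -0.24 for mitosis genes. It changed sign in 3 of 33 settings for adrenal cortex and adipocyte genes, 2 for DNA replication, and 1 for complex I, dendritic cell and mitochondrially encoded genes. The cause was not tested.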

Other observations

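Limits are these. The sides were chosen by a single gene measured in the same libraries, so genes made by the same cells share its counting and sampling. The border tumors differ by less than 1 CPM, the rich side holds 2 tumors far above the rest, and PPGL group is not balanced across it. No cell was counted, so whether a list reports cells or expression per cell was not tested. Tissue storage, clinic, tumor site and necrosis of each sample were not used here and not tested. No gene of the 9 against 9 comparison passed the edgeR QL adjusted threshold, and its list counts rest on unadjusted p values except those given for DESeq2.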
